A study of Mus musculus with 24 samples.

Results

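A set of 8 genes through which microglia sense purines and lysolipids was followed across the 24 libraries: the nucleotide receptors P2ry12, P2ry13, P2ry6, P2rx4 and P2rx7, the lysophosphatidylserine receptor Gpr34, the adenosine receptor Adora3 and the ecto-enzyme Entpd1. They were chosen by name, with earlier results of these data known. They are 8 of the 53700 gene identifiers in the microglia tables and of the 55487 in the astrocyte tables. All 8 passed the filter on low counts in microglia and 7 did so in astrocytes, where Adora3 failed it. The libraries came from adult Serpine2-/- mice (knockouts) and from littermates carrying 1 or more functional Serpine2 alleles (controls), injected with lipopolysaccharide (LPS) or with saline. Microglia were immunopanned (captured on antibody-coated dishes) from whole brain and astrocytes from cerebral cortex, giving the groups LPS knockout, saline knockout, LPS control and saline control in each cell type, with 3 libraries each. The labels pool the controls with 1 and with 2 functional alleles, and they give no LPS dose, interval or strain. They do not say that the 3 libraries of a group are 3 mice, so p-values measure the spread between these libraries only.

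ATP, ADP and UDP leak from injured cells and act on 2 receptor families of microglia. P2Y receptors are coupled to G proteins, and P2X receptors are ion channels opened by ATP. Ecto-enzymes such as CD39, the product of Entpd1, break down the nucleotides, and the adenosine formed further on acts on receptors such as the one encoded by Adora3. P2RY12 steers microglial processes towards sites of injury and is widely used as a marker of homeostatic microglia.

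Levels are given as CPM, reads of the gene per 1000000 gene counts after scaling with TMM factors, within a cell type unless stated otherwise. Gene counts per library spanned 4506142 to 13621776 (microglia) and 10944765 to 25135252 (astrocytes), and reads outside annotated genes made up 64.6% to 77.0% and 20.5% to 26.9% of the tables' totals. The label of sex matched Xist and Y-linked transcripts in 23 of 24 libraries, the exception being microglia LPS control 1. By label, microglia libraries 1, 2 and 3 were male, female and male in both saline groups. In both LPS groups they were female, male and female. Sex and injection therefore cannot be fully told apart in microglia. Serpine2 was lower in every knockout microglia library, at 16.9, 18.7 and 19.3 CPM in LPS knockouts against 49.1, 68.4 and 88.0 CPM in LPS controls, and at 20.1, 17.6 and 20.7 CPM in saline knockouts against 62.2, 46.6 and 96.5 CPM in saline controls. None of the 10 microglia markers was at 0 in the microglia libraries, and their summed level was 1729 to 3717 CPM in LPS libraries and 2565 to 6142 CPM in saline libraries. In the astrocyte libraries 7 astrocyte markers summed to 13667 to 20961 CPM after LPS and 14589 to 18360 CPM in saline. Neuron markers were present in the microglia libraries. The 7 markers summed to 1850 to 2185 CPM in LPS libraries and 1856 to 2842 CPM in saline libraries. Oligodendrocyte markers, 6 in number, were present in both cell types. They summed to 1865 to 2658 CPM (LPS) and 1343 to 4087 CPM (saline) in microglia libraries. In astrocyte libraries they summed to 1858 to 5019 CPM (LPS) and 2287 to 4389 CPM (saline). The values below are therefore levels of the preparations.

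P2ry12, P2ry13 and Gpr34 fell after LPS in microglia of both genotypes, and Entpd1 fell when averaged over genotypes. The fall was 6.72-fold for P2ry12, 5.37-fold for Gpr34, 3.12-fold for Entpd1 and 3.09-fold for P2ry13. P2rx4 averaged 1.45-fold higher, short of the threshold. P2rx7, P2ry6 and Adora3 had averaged log2 fold changes between -0.22 and -0.08. EdgeR called 3 of the 8 genes lower in controls, where it called 0.0495% of all 22230 tested genes lower, 4 of 8 in knockouts (background 0.13%) and 4 of 8 averaged over genotypes (background 0.513%). None was called higher, against backgrounds of 0.526%, 1.01% and 2.19%, so that genes called in either direction made up 0.576%, 1.14% and 2.7% of those tested. The median log2 fold change of the 8 genes was -0.92, beside -0.03 over all genes tested.

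P2ry12, the ADP receptor of process chemotaxis, had 47.0, 47.1 and 23.5 CPM in LPS knockouts, 410, 197 and 186 CPM in saline knockouts, 84.5, 42.0 and 45.3 CPM in LPS controls, and 382, 380 and 387 CPM in saline controls. Every LPS library lay below every saline library, and the saline controls were within a few CPM of each other. Relative to saline, LPS knockouts differed by -2.76 on the log2 scale (SE 0.36, edgeR adjusted p 0.00136), and LPS controls by -2.74 (SE 0.36, edgeR adjusted p 0.00147). The gene (ENSMUSG00000036353) lies on chromosome 3, 59216272 to 59262871, minus strand (GRCm38, GENCODE annotation). It shares 9 of its 2546 exonic bases with Med12l, which runs on the opposite strand.

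P2ry13, a second ADP receptor, had 58.5, 63.2 and 43.9 CPM in LPS knockouts, 207, 139 and 131 CPM in saline knockouts, 68.3, 52.5 and 64.0 CPM in LPS controls, and 224, 208 and 178 CPM in saline controls. The LPS libraries again lay below all saline libraries. Relative to saline, LPS knockouts differed by -1.53 on the log2 scale (SE 0.22, edgeR adjusted p 0.00209), and LPS controls by -1.72 (SE 0.22, edgeR adjusted p 0.00115). P2ry13 (ENSMUSG00000036362, chromosome 3, 59207892 to 59210882, minus strand) sits next to P2ry12 inside an intron of Med12l, a gene on the other strand. Med12l itself had a log2 fold change of -0.08 after LPS (SE 0.12, edgeR adjusted p 0.851).

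Gpr34, a G protein-coupled receptor for lysophosphatidylserine, had 13.2, 16.3 and 7.52 CPM in LPS knockouts, 103, 50.6 and 46.6 CPM in saline knockouts, 26.5, 15.2 and 14.9 CPM in LPS controls, and 117, 72.4 and 108 CPM in saline controls. No LPS library reached the lowest saline library. Relative to saline, LPS knockouts differed by -2.46 on the log2 scale (SE 0.37, edgeR adjusted p 0.00338), and LPS controls by -2.39 (SE 0.36, edgeR adjusted p 0.00381). Gpr34 (ENSMUSG00000040229, chromosome X, 13632089 to 13640858, plus strand) lies in an intron of Cask on the opposite strand, and Cask had a log2 fold change of -0.20 (SE 0.12, edgeR adjusted p 0.533).

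Entpd1 encodes CD39, which hydrolyses extracellular ATP and ADP. It had 27.8, 33.5 and 24.8 CPM in LPS knockouts, 187, 56.4 and 63.2 CPM in saline knockouts, 46.0, 33.9 and 34.6 CPM in LPS controls, and 154, 77.0 and 82.9 CPM in saline controls. All LPS libraries lay below all saline libraries, and within each saline group library 1 stood well above the other two. Averaged over genotypes the change was -1.64 (SE 0.28, edgeR adjusted p 0.00368). It was -1.83 in knockouts (SE 0.40, edgeR adjusted p 0.0402) and -1.45 in controls (SE 0.40, edgeR adjusted p 0.192), and the call in knockouts was kept in 6 of the 12 fits that left out a library. Without saline knockout 1 the knockout value was -1.08 (edgeR adjusted p 0.136), and the control value, at -1.43, was called (edgeR adjusted p 0.0184). Entpd1 (ENSMUSG00000048120) spans chromosome 19, 40612366 to 40741602, plus strand.

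**Figure D1:**
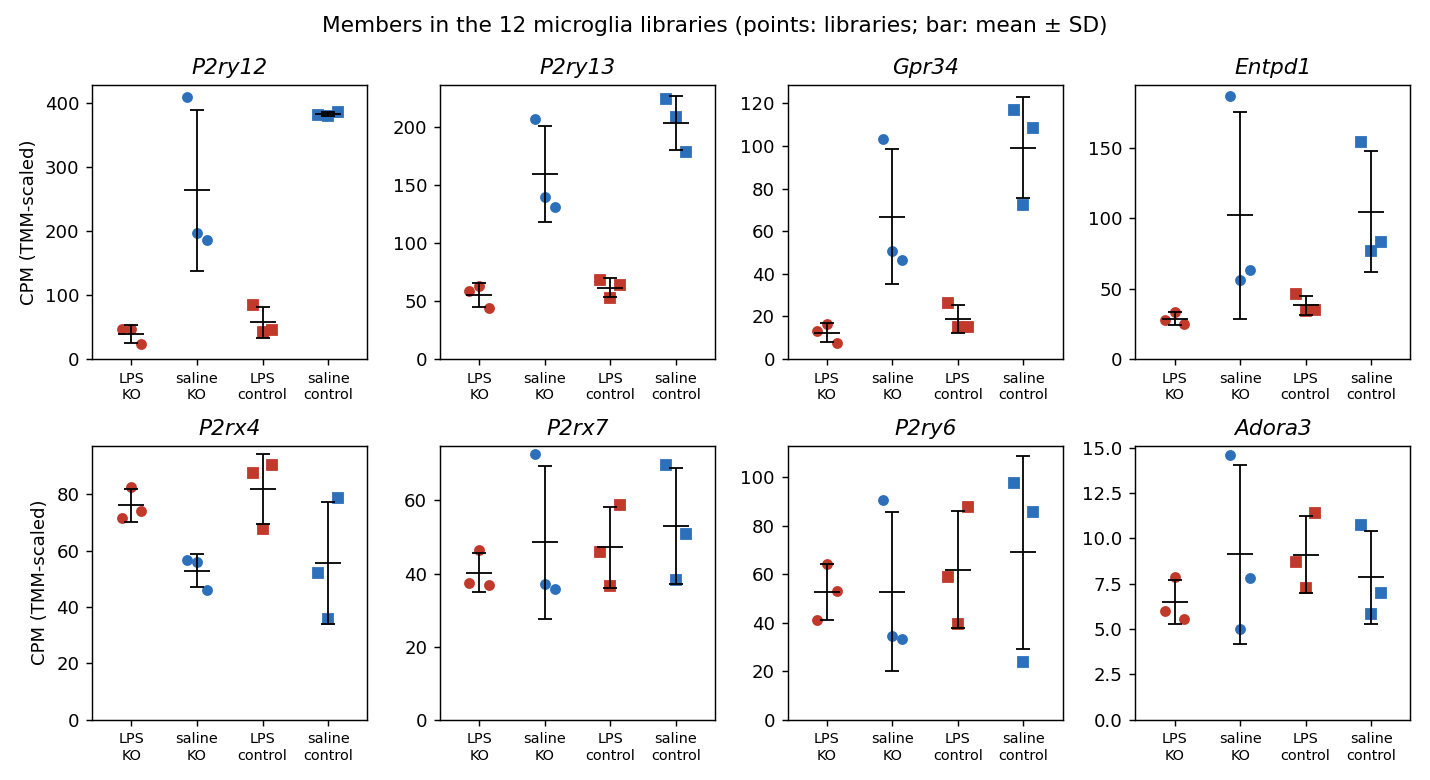
Level (CPM, linear axes from 0) of each of the 8 genes in the 12 microglia libraries, with 1 point per library and the mean ± SD of each group of 3 as bars (KO, knockout). For P2ry12, P2ry13, Gpr34 and Entpd1 the LPS points lie below all saline points. For the other 4 genes the LPS and saline points overlap over both genotypes. The share of all tested genes that separate like this was not determined.

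P2rx4, an ATP-gated channel linked to microglial responses to nerve injury, had 71.5, 82.5 and 74.2 CPM in LPS knockouts, 56.8, 56.0 and 46.2 CPM in saline knockouts, 87.6, 67.8 and 90.4 CPM in LPS controls, and 52.2, 35.8 and 78.7 CPM in saline controls. In knockouts every LPS library for P2rx4 was above every saline library, whereas in controls the groups overlapped through saline control 3. The averaged log2 fold change was 0.54 (95% interval 0.17 to 0.91, edgeR adjusted p 0.155), and without saline control 3 it was 0.70 (edgeR adjusted p 0.0110). P2rx4 (ENSMUSG00000029470, chromosome 5, 122707544 to 122729738, plus strand) neighbours P2rx7.

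P2rx7, the ATP-gated channel that can trigger release of interleukin 1 beta, had 37.5, 46.5 and 36.9 CPM in LPS knockouts, 72.7, 37.0 and 35.8 CPM in saline knockouts, 46.0, 36.6 and 58.9 CPM in LPS controls, and 69.8, 38.3 and 50.7 CPM in saline controls. The groups overlapped, with an averaged log2 fold change of -0.22 (95% interval -0.66 to 0.23). P2rx7 (ENSMUSG00000029468) spans chromosome 5, 122643911 to 122691432, plus strand, and shares 119 exonic bases with Mir8115.

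P2ry6, a UDP receptor that promotes phagocytosis, had 41.0, 64.1 and 53.0 CPM in LPS knockouts, 90.6, 34.7 and 33.3 CPM in saline knockouts, 58.7, 39.5 and 87.7 CPM in LPS controls, and 97.6, 23.8 and 85.7 CPM in saline controls. The spread within groups exceeded the difference between them, and the averaged log2 fold change was -0.08 (95% interval -0.79 to 0.63). P2ry6 (ENSMUSG00000048779) lies on chromosome 7, 100937630 to 100974649, minus strand.

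Adora3, the lowest of the 8, had 6.01, 7.85 and 5.57 CPM in LPS knockouts, 14.6, 4.99 and 7.81 CPM in saline knockouts, 8.67, 7.26 and 11.4 CPM in LPS controls, and 10.7, 5.82 and 6.99 CPM in saline controls. The groups overlapped (averaged log2 fold change -0.13, 95% interval -0.69 to 0.42). Its values are uncertain, since 20.9% of the exonic bases of Adora3 (ENSMUSG00000000562, chromosome 3, 105870858 to 105908926, plus strand) are shared with Tmigd3.

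**Figure D2:**
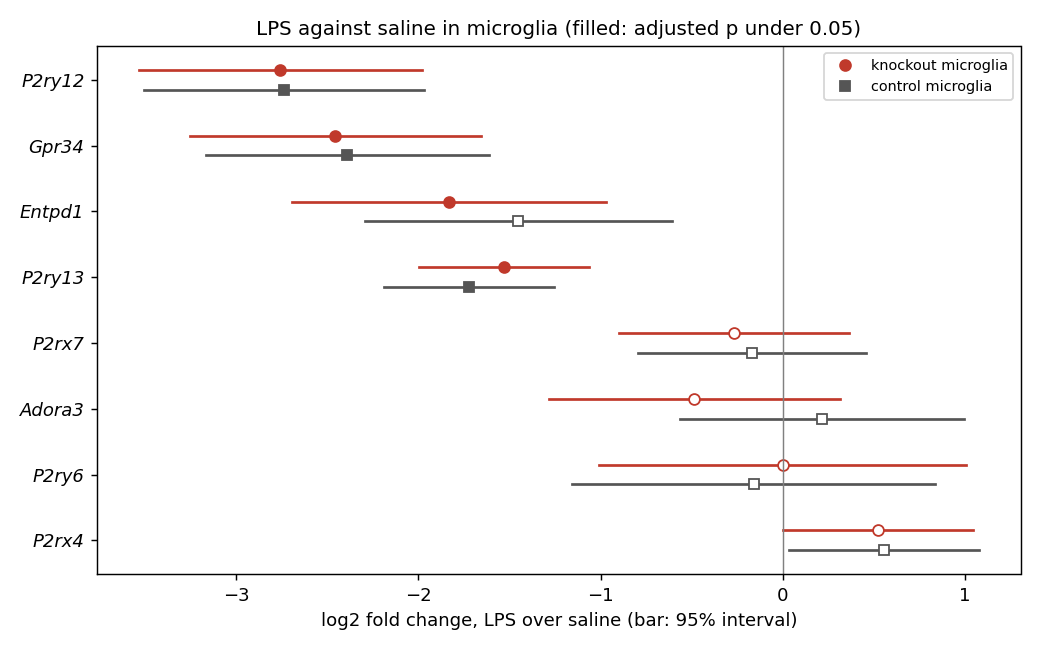
Log2 fold change of LPS against saline in microglia for the 8 genes, in knockouts and in controls, with 95% intervals from the edgeR fit and filled symbols for genes called. P2ry12, Gpr34 and P2ry13 lie below 0 with similar values in both genotypes, and P2rx4 is the only one of the 8 with a positive value in both.

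Markers of microglia themselves and of some other cell types also differed between injections in the microglia libraries. The sums of neuron, astrocyte, oligodendrocyte, oligodendrocyte precursor, monocyte, border macrophage, and mast cell and eosinophil markers overlapped between LPS and saline. Endothelial markers summed to 27.0 to 34.2 CPM in LPS libraries and 21.8 to 26.9 CPM in saline libraries. Of the 10 microglia markers, 4 were called lower after LPS averaged over genotypes (among them Siglech, Cx3cr1 and Sall1, by 1.88, 1.35 and 1.14 on the log2 scale), 0 were called higher, and the median log2 fold change of the list was -0.83. P2RY12 is also a platelet receptor, and 6 platelet markers summed to 1.63 to 6.58 CPM in LPS libraries against 5.13 to 12.3 CPM in saline libraries, while of the 3 platelet markers tested 1, Gp9, was called lower (-2.60, edgeR adjusted p 0.00912) and the median was -0.28. Neutrophil markers summed to 354 to 988 CPM in LPS libraries against 657 to 2280 CPM in saline libraries, and 3 of 7 (Camp, Retnlg and Ngp) were called lower. The sums overlapped in controls, at 546 to 855 CPM after LPS and 657 to 765 CPM in saline. In knockouts they were 354 to 988 CPM after LPS and 1206 to 2280 CPM in saline. Erythrocyte markers summed to 29.9 to 40.3 CPM in LPS libraries against 42.3 to 147 CPM in saline libraries, without overlap, and 2 of 3 tested were called lower. T and NK cell markers summed to 9.20 to 34.8 CPM in LPS libraries against 0.691 to 3.10 CPM in saline libraries, and both that were tested, Gzma and Nkg7, were called higher. The part of these changes in the results was not tested. In such bulk libraries, fewer cells of a type and less RNA per cell cannot be told apart.

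Ratios of reads within a library do not depend on the scaling between libraries. P2ry12 gave 0.657, 0.571 and 0.317 reads per P2rx4 read in LPS knockouts, 7.22, 3.52 and 4.02 in saline knockouts, 0.965, 0.620 and 0.501 in LPS controls, and 7.32, 10.6 and 4.92 in saline controls. Thus P2ry12 gave fewer reads than P2rx4 in every LPS library and more in every saline library. Against P2ry13, P2ry12 gave 0.536 to 1.24 reads per P2ry13 read in LPS libraries and 1.41 to 2.18 in saline libraries, without overlap. Against Gpr34 it gave 2.76 to 3.57 reads per read in LPS libraries and 3.26 to 5.26 in saline libraries, ranges that overlap. All these ratios reuse the P2ry12 reads whose fall is given above. The share of gene pairs that separate like this was not determined.

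**Figure D3:**
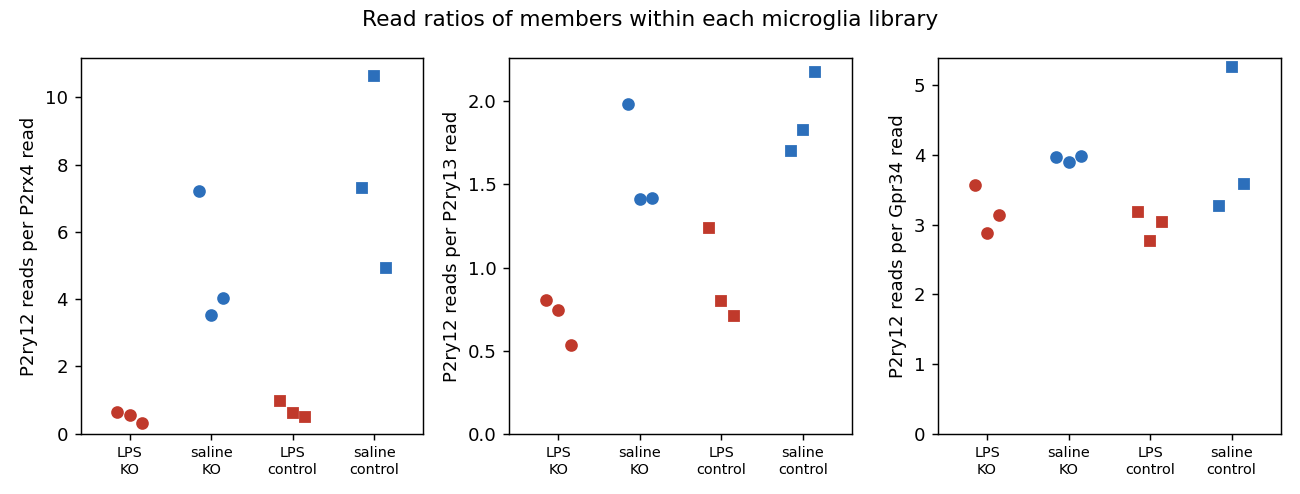
Reads of P2ry12 per read of P2rx4, P2ry13 and Gpr34 within each of the 12 microglia libraries (linear axes from 0), 1 point per library (KO, knockout). LPS and saline libraries separate for P2rx4 and P2ry13 and overlap for Gpr34. The share of gene pairs that separate like this was not determined.

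Per kilobase of annotated exon, the order of the 8 genes also differed between injections. In LPS controls P2ry13 led with 24.4 ± 3.24 CPM per kb, followed by P2ry12 (22.5 ± 9.28) and P2ry6 (21.5 ± 8.42), levels that did not differ beyond their spread (SD, n = 3). In saline controls P2ry12 led with 150.5 ± 1.34 CPM per kb, ahead of P2ry13 (80.5 ± 9.29) and Gpr34 (47.5 ± 11.3), whose library values did not overlap. P2ry6 (23.9 ± 13.7) and Entpd1 (18.8 ± 7.69) followed and overlapped, as did P2rx7 (8.87 ± 2.65) and P2rx4 (7.91 ± 3.08), with Adora3 lowest (2.10 ± 0.69). Knockouts had the same order of their means in saline, with P2ry12 at 104 ± 49.5 CPM per kb, and P2ry13 first in LPS at 21.8 ± 3.99.

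Promoter sequences are shown for 3 genes called lower after LPS (P2ry12, its neighbour P2ry13, and Entpd1 at its first listed start) and for 2 that were not called, P2rx4 and Adora3. They are the 250 bases before the RefSeq start (GRCm38.p6), 5′ to 3′ on the gene's strand, at chr3:59262986-59263235 (minus strand), chr3:59210883-59211132 (minus strand), chr19:40612116-40612365 (plus strand), chr5:122707294-122707543 (plus strand) and chr3:105904171-105904420 (plus strand), in the order printed. Capitals mark AGGAAG or its reverse complement CTTCCT, the core recognised by PU.1, a transcription factor of the myeloid lineage.
P2ry12: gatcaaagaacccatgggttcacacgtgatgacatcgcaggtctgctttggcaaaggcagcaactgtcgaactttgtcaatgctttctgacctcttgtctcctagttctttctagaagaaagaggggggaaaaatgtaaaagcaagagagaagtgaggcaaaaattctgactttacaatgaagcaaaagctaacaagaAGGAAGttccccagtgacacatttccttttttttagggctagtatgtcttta
P2ry13: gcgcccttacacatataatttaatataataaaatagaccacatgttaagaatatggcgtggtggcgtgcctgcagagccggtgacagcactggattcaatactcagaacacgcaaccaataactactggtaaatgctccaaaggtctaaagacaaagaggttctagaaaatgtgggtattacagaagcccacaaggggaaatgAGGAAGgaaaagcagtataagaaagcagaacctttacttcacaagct
Entpd1: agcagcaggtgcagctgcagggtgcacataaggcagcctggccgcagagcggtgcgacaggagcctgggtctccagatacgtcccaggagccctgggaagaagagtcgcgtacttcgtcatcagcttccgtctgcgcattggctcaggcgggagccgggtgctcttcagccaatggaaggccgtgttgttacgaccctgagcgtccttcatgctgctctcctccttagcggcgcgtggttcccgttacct
P2rx4: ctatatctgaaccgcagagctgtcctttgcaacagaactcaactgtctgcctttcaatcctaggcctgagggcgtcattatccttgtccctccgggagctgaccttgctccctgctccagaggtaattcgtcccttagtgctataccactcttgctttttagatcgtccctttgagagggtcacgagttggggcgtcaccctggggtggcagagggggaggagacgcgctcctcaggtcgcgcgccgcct
Adora3: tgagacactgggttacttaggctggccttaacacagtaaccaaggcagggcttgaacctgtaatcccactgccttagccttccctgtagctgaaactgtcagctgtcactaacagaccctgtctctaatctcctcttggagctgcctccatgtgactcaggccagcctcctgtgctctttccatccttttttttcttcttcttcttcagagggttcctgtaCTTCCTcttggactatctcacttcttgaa
The presence of these letters did not follow the calls. The P2ry12 and P2ry13 windows held 1 match each, as did the Adora3 window and that of the second start of P2rx7, genes that were not called. The window of the first start of Entpd1 held none and that of its second start 2 overlapping ones, and the windows of P2rx4 and of the first start of P2rx7 held none. Over the 8 windows of the 6 genes in the RefSeq table, 5 held a match, and the NF-kB and interferon response motifs, also searched on both strands, were found in 0 of them and in 0.356% and 2.98% of all such windows. Of 32851 such windows, 29.5% held AGGAAG or CTTCCT, and the motif was picked after the sequences had been seen. A match is a run of letters and says nothing of binding.

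None of the 8 genes was called between knockout and control microglia. EdgeR called 0% of genes in saline and after LPS, with 351 and 335 of 22230 genes at an unadjusted p under 0.05. Averaged over injections it called 0.0045%, which is Serpine2 alone, with 449 of 22230 genes at an unadjusted p under 0.05. The averaged knockout-minus-control log2 fold change was negative for all 8 genes, from -0.61 for Gpr34 to -0.09 for P2rx4, with a median of -0.24 beside -0.01 over all genes. The share of all genes with a negative value was not determined. The 8 values are not independent, since P2ry12, P2ry13 and Gpr34 varied together over the libraries (Pearson r 0.977 to 0.991). It was -0.61 for Gpr34 (95% interval -1.14 to -0.07, edgeR unadjusted p 0.0287, adjusted p 1) and -0.55 for P2ry12 (-1.06 to -0.03, unadjusted p 0.0393, adjusted p 1), intervals that lay below 0 before adjustment. In saline, P2ry12 averaged 264 ± 126 CPM in knockouts and 383 ± 3.41 CPM in controls (SD, n = 3 each), but knockout 1, at 410 CPM, was above all controls. After LPS it averaged 39.2 ± 13.6 CPM in knockouts and 57.3 ± 23.6 CPM in controls, and the groups overlapped. For Entpd1 after LPS every knockout library was below every control library, at 24.8 to 33.5 CPM against 33.9 to 46.0 CPM. These ranges nearly touch, and the difference was not called (log2 fold change -0.42, 95% interval -1.26 to 0.43, edgeR unadjusted p 0.308). The share of all genes with such an order was not determined.

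The 10 microglia markers had the same sign, with an averaged median log2 fold change of -0.33 and 0 called. Saline knockout 1, the highest of its group for all 8 genes, also had the highest marker sum of its group. That sum was 6111 CPM, against 2871 and 2565 CPM in the other saline knockouts. Saline control 1 likewise had the highest marker sum of its group, at 6142 CPM against 2944 and 4806 CPM. Over all tested genes, the deviations of these 2 libraries from their group means correlated (r 0.442). Markers of neutrophils, monocytes and border macrophages mostly had the opposite sign, but not all such lists did. The median sum of erythrocyte markers was 32.0 CPM in LPS knockouts against 38.4 CPM in LPS controls. In saline it was 76.2 against 76.4 CPM. For mast cells and eosinophils these medians were 122 against 132 CPM and 160 against 164 CPM. For platelets they were 5.66 against 5.50 CPM and 12.0 against 11.9 CPM. For T and NK cells they were 27.5 against 20.3 CPM and 2.12 against 1.20 CPM. Neutrophil markers summed to 1206 to 2280 CPM in saline knockouts against 657 to 765 CPM in saline controls, without overlap, with 6 of 7 positive and a median of 1.31. After LPS they summed to 354 to 988 CPM in knockouts against 546 to 855 CPM in controls, with 4 of 7 positive. Averaged over injections, 5 of 5 monocyte markers (median 0.58) and 6 of 6 border macrophage markers (median 0.27) were positive. No neutrophil, monocyte or border macrophage marker was called. The part of these markers in the values above was not tested.

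The LPS response did not pass a test of difference between genotypes for any of the 8 genes, and 0% of all genes passed it (251 of 22230 at an unadjusted edgeR p under 0.05). The knockout response minus the control response was -0.02 for P2ry12 (95% interval -1.04 to 1.00), -0.07 for Gpr34 (-1.13 to 1.00) and 0.19 for P2ry13 (-0.45 to 0.84). For Entpd1 it was -0.38 (-1.56 to 0.80) and for Adora3 -0.70 (-1.82 to 0.41).

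**Figure D4:**
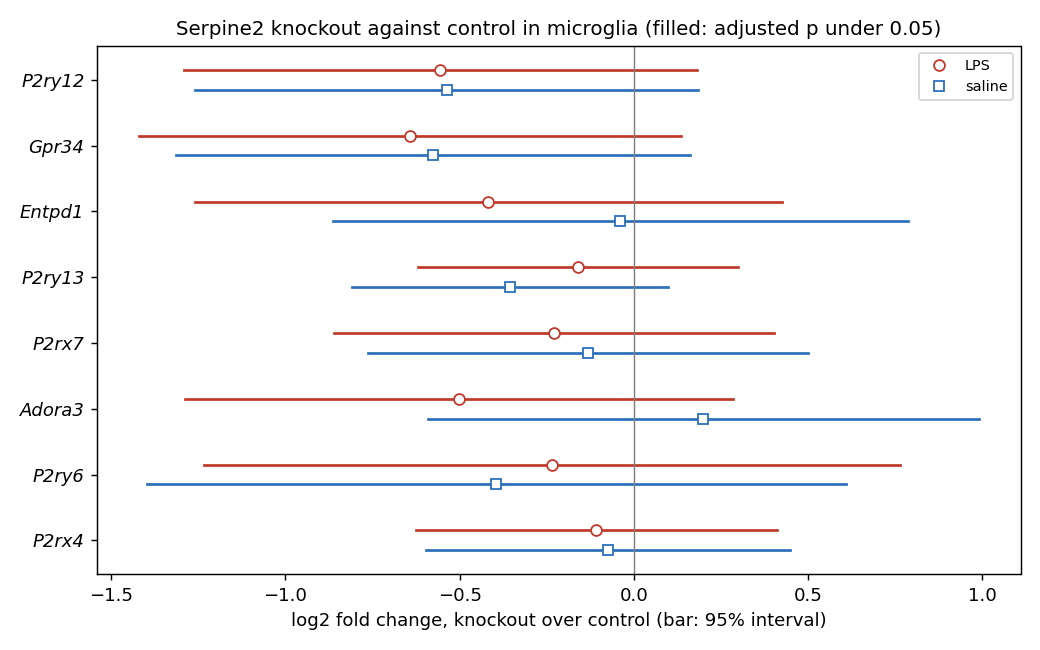
Log2 fold change of knockout against control in microglia for the 8 genes, after LPS and in saline, with 95% intervals from the edgeR fit. Every interval includes 0, and 15 of the 16 values are negative, Adora3 in saline being the exception. The share of all genes with negative values was not determined.

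Astrocyte libraries held most of these transcripts too, at lower levels. On a scale common to both cell types, 6 of the 8 genes were called higher in microglia than in astrocytes among saline controls, where 32.1% of all 24607 genes were called higher and 23.6% lower (55.7% in all). Cell type cannot be told apart here from brain region, preparation and gene table. P2ry6 averaged 40.6 ± 23.0 CPM in microglia and 2.13 ± 1.88 CPM in astrocytes (log2 difference 4.24, SE 0.98, edgeR adjusted p 0.000991), and P2ry13 averaged 121 ± 17.7 and 7.38 ± 4.03 CPM (4.04, SE 0.64, edgeR adjusted p 1.33e-05; SD, n = 3 each). Gpr34 was higher by 3.01, P2ry12 by 2.35 and Entpd1 by 1.70 on the log2 scale, but with the replicate number as a block Gpr34 was at 1.77 (edgeR adjusted p 0.0515) and 5 of the 8 genes were called. Adora3 averaged 4.66 ± 1.53 CPM in microglia and had 0 reads in all astrocyte saline controls, which is at least 13.8-fold higher against a floor of 3 counts per library.

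P2rx4 and P2rx7 were the exceptions. P2rx4 averaged 32.7 ± 11.4 CPM in microglia and 40.0 ± 12.4 CPM in astrocytes (log2 difference -0.29, 95% interval -0.85 to 0.28), and P2rx7 averaged 31.4 ± 9.33 and 51.1 ± 10.7 CPM (-0.70, SE 0.30, edgeR adjusted p 0.0505). The P2rx4 sign depended on the scaling, at 0.021 with RLE factors, under which the median over all genes was 0.68, against 0.38 with TMM factors. Astrocyte levels as a share of microglial levels were 19.6% for P2ry12, 12.4% for Gpr34, 6.09% for P2ry13 and 5.25% for P2ry6. The 10 microglia markers ranged from 2.41% (Tmem119) to 165% (Sall1) with a median of 9.94%.

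**Figure D5:**
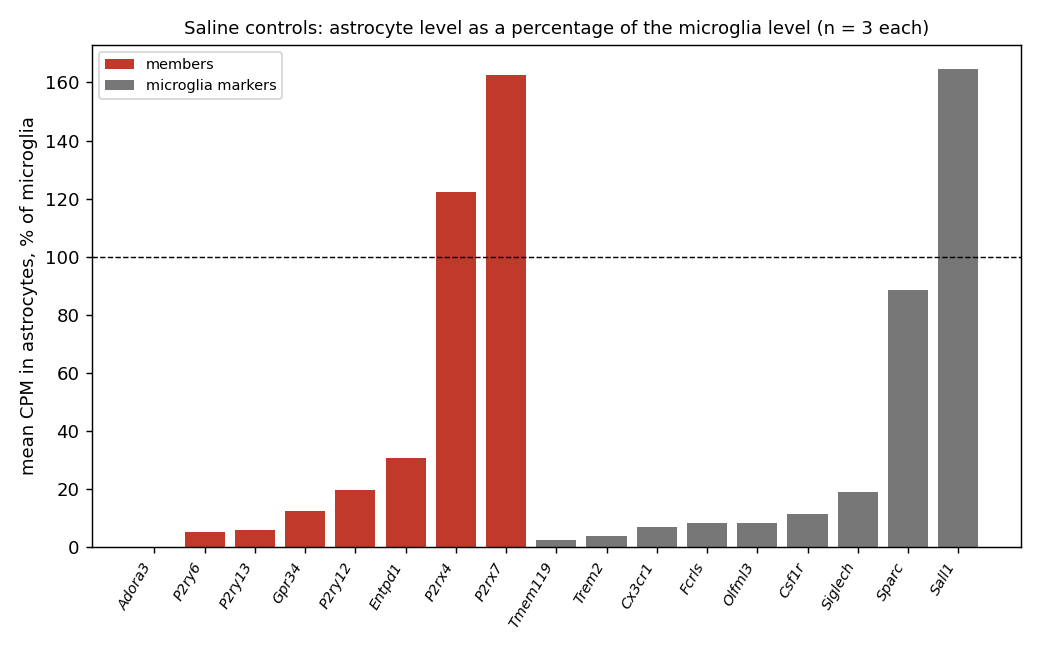
Bars give the astrocyte level as a percentage of the microglial level in saline controls (linear axis, mean CPM on the common scale, n = 3 libraries each) for the 8 genes (members) and for microglia markers, with a dashed line at 100%. Adora3 is at 0. P2rx7 and P2rx4 lie above 100%, at 163% and 122%, and the other 5 genes with reads lie between 5.25% and 30.6%.

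In astrocytes, P2ry12 was the only one of the 7 genes tested that was called after LPS, averaged over genotypes, against backgrounds of 1.92% lower and 4.98% higher (6.9% in all). It had 5.30, 8.29 and 8.52 CPM in LPS knockouts, 24.4, 13.7 and 11.1 CPM in saline knockouts, 4.48, 8.78 and 18.6 CPM in LPS controls, and 15.4, 28.2 and 19.9 CPM in saline controls. In knockouts all LPS libraries were below all saline libraries, and in controls LPS control 3 lay above saline control 1. The change was -1.08 on the log2 scale (SE 0.31, edgeR adjusted p 0.0442), and the call was kept in 3 of the 12 fits that left out a library, those without saline knockout 3, LPS control 3 or LPS knockout 3. Over the same libraries the 10 microglia markers summed to 327 to 777 CPM in LPS libraries against 247 to 338 CPM in saline libraries. Sparc and Sall1 weigh heavily on this sum, so it does not track microglia alone. In saline control astrocytes, on the common scale, the 10 markers summed to 626 to 720 CPM. Sparc averaged 348 CPM there and Sall1 95.6 CPM, at 88.4% and 165% of their microglial levels, against 7.05 CPM for Tmem119 and 2.97 CPM for Trem2.

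P2ry6 in astrocytes had 0.773, 8.78 and 2.20 CPM in LPS knockouts, 0.369, 0.342 and 0.287 CPM in saline knockouts, 0.330, 6.95 and 1.07 CPM in LPS controls, and 1.68, 1.32 and 0 CPM in saline controls. LPS and saline differed by 2.49 on the log2 scale (SE 0.86, edgeR adjusted p 0.101). Library 2 of both LPS groups was the highest for P2ry6, and it also had the highest microglia marker sum of its group, at 777 CPM in knockouts (327 and 551 in the other two) and 752 CPM in controls (331 and 700). In the same 2 libraries the 10 most abundant genes took 66.4% and 65.9% of gene counts, against 47.7% to 55.9% in the other LPS libraries. The part of these in the P2ry6 values was not tested, and the marker sum has the limit given above for Sparc and Sall1. The remaining genes overlapped between injections. P2rx4 ran between 10.2 and 21.4 CPM in LPS libraries and 12.4 and 22.9 CPM in saline libraries, P2rx7 between 17.05 and 27.5 against 10.1 and 29.3, and Entpd1 between 5.41 and 11.04 against 8.01 and 14.5. P2ry13 ran between 0.405 and 5.69 CPM in LPS libraries and 1.78 and 8.80 CPM in saline libraries, Gpr34 between 0.047 and 4.12 against 1.47 and 4.33, and Adora3 stayed between 0 and 0.293 over all 12. The log2 fold changes of P2rx7 (0.13), P2rx4 (-0.27), P2ry13 (-0.37), Gpr34 (-0.93) and Entpd1 (-0.19) were not called. None of the 7 genes was called for the averaged knockout effect (background 0.0055%) or for the difference of LPS responses between genotypes (0%).

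The LPS response of P2ry12 in microglia was lower than that in astrocytes by 1.64 on the log2 scale (SE 0.41, edgeR adjusted p 0.0252), and that of Entpd1 by 1.42 (SE 0.38, edgeR adjusted p 0.0408). These were the 2 of 8 genes called, both lower, beside backgrounds of 1.78% lower and 0.817% higher (2.6% in all). The P2ry12 call was kept in 20 of the 24 fits that left out a library, being lost without microglia saline knockout 1, LPS control 2, LPS control 3 or LPS knockout 3 (edgeR adjusted p 0.0557 to 0.0676). The Entpd1 call was kept in 7 of 24. With sex from the labels or from transcripts as a covariate the Entpd1 value was nearly the same, at -1.43 and -1.41, with edgeR adjusted p 0.0603 and 0.0543. P2ry13 (-1.20) and Gpr34 (-1.42) had the same sign without passing the threshold (edgeR adjusted p 0.349 and 0.354). So did Adora3 (-2.77) and P2ry6 (-2.50), with larger differences and low counts in astrocytes (edgeR adjusted p 0.181 and 0.178). P2rx7 was at -0.31 (edgeR adjusted p 0.728). P2rx4 had the opposite sign (0.85, edgeR adjusted p 0.104).

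Among 65 other genes of purine and lysolipid signalling, 54 were tested in microglia, and 3 (5.56%) were called higher after LPS, averaged over genotypes, and 0 lower, beside 2.19% and 0.513% of all genes. Of 6 other P2Y receptors 3 were tested and P2ry2 was called, of 17 lysophospholipid receptors and enzymes 13 were tested and Gpr132 was called, and of 11 signalling partners all were tested and Il1b was called, each of them higher. P2ry2, a receptor for ATP and UTP, had 2.38, 1.27 and 1.33 CPM in LPS knockouts, 0.69, 0.55 and 0.34 in saline knockouts, 1.21, 1.18 and 2.36 in LPS controls, and 0.35, 0.51 and 0.73 in saline controls (log2 fold change 1.56, edgeR adjusted p 0.0324). Gpr132 changed by 2.19 (edgeR adjusted p 0.00359), and Il1b, which encodes interleukin 1 beta, by 3.40 (edgeR adjusted p 6.06e-05). For all 3 genes every LPS library was above every saline library of its genotype. These are the same libraries that gave the calls, and the share of all genes that separate like this was not determined. P2ry2, at 0.34 to 0.73 CPM in saline, passed the filter on low counts only through its LPS libraries. Its place among the 3 genes called therefore depends on that filter.

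None was called among 4 tested of 5 other P2X receptors, 3 of 3 other adenosine receptors, 14 of 17 nucleotide and adenosine enzymes and transporters, and 6 of 6 genes of ATP release. P2ry14, the UDP-glucose receptor and the highest of its list by mean CPM, had a log2 fold change of -0.36 (edgeR adjusted p 0.480). The most abundant genes of the other lists were not called either, among them Enpp2 (autotaxin, -0.35), Abhd12 (a lysophosphatidylserine lipase, -0.06), Adora1 (0.02), P2rx6 (0.38), Panx2 (0.09) and Gnai2 (0.46). In astrocytes 46 of the 65 were tested, and 6 (13.04%) were called higher and 4 (8.70%) lower after LPS, beside 4.98% and 1.92% of all genes. Lrrc8a, Ada, Pla1a, S1pr3, Gsdmd and Casp1 were those called higher and Enpp1, Enpp2, Lpar1 and S1pr1 those called lower. No gene of these lists was called for the averaged knockout effect in either cell type.

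Over the 12 microglia libraries, the log2 CPM of P2ry12 was most like that of Gpr34 (Pearson r 0.991), P2ry13 (0.988) and Hpgd (0.981), out of 12904 genes averaging at least 8 CPM. Gpr34 and P2ry13 had P2ry12, each other and Hpgd nearest. Entpd1 was nearest to Tgfa (0.985), Txnip and Sft2d2, P2ry6 to Cd81 (0.968), Lamc1 and Ctsa, and P2rx4 to Rpl3 (0.969), Shisa5 and Ifngr2. P2rx7 was nearest to Kcnk6 (0.956), Inpp5d and Ncoa3, and Adora3 to Kcnk6 (0.875), Banp and P2rx7. P2rx4 had a negative r with P2ry12 (-0.63) and P2ry13 (-0.68). These describe 12 libraries that share the LPS contrast and the spread of microglia marker sums given above.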

How the data were processed

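Per the labels' protocols, RNA from the panned cells was purified with the miRNeasy kit and made into libraries with the Ovation V2 and NEBNext Ultra kits. The authors deposited 1 table per library of whole-number counts per Ensembl gene, not normalised. Per the submitters' processing notes the tools were STAR 2.6.0c and HTSeq, with GRCm38 and GRCm39 both named. Strand setting and annotation release are not given in the sources used here, so overlapping and antisense genes are uncertain. Symbols and coordinates are from GENCODE on GRCm38, and identifiers with a symbol numbered 52093 in microglia and 55141 in astrocytes.

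Rows naming no gene were left out. Among them, reads without a feature took 64.6% to 77.0% in microglia tables and 20.5% to 26.9% in astrocyte tables. These are shares of gene counts, no-feature reads and ambiguous reads together. The 12 libraries of a cell type, or all 24 for comparisons between cell types over 52404 shared identifiers, were fitted with edgeR 4.0.16 under R 4.3.3. The filter was filterByExpr (minimum count 10, minimum total 15), scaling was TMM, and group means were compared by two-sided robust quasi-likelihood tests. Genes were called below 0.05 after Benjamini-Hochberg adjustment across the whole table. Log2 CPM used a prior count of 2. The scripts were tested on simulated data.

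The 8 genes and all lists were chosen with earlier results of these data known. The other genes named are those of the lists that were called or had the highest mean CPM, the 3 genes most correlated with each member, overlapping or host genes, markers that were called or are cited for a range, and Serpine2. The values of 1 called microglia marker are not reported here. The study's design speaks of sibling pairs, but the labels do not say which libraries form one, so replicate numbers were not taken to pair libraries. Replicates differed by more than counting noise. Reads carry no molecular identifiers, so floors cover counting error only. Alternatives were RLE factors, DESeq2 1.42.0, no filter, a minimum count of 50, sex (from the labels or from transcripts) as a covariate, replicate blocks, fits restricted to the groups of a comparison, and fits leaving out single libraries.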

Additional observations from a re-analysis of the deposited data

Results flagged for a closer look

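A pair of genes was singled out because the LPS effect differed between the cell types by a test of the difference itself, the interaction term of the edgeR fit over all 24 libraries. The LPS response of P2ry12, averaged over genotypes, was -1.64 on the log2 scale in microglia minus astrocytes (SE 0.41, edgeR adjusted p 0.0252), and that of Entpd1 was -1.42 (SE 0.38, edgeR adjusted p 0.0408). With a library left out, the P2ry12 call was kept in 20 of 24 fits and the Entpd1 call in 7 of 24. The Entpd1 call was also lost with sex from labels or from transcripts as a covariate (edgeR adjusted p 0.0603 and 0.0543). P2ry12 was lower after LPS in all 6 microglia LPS libraries than in all 6 saline libraries. In astrocytes it was called lower too (-1.08, edgeR adjusted p 0.0442). Cell type cannot be told apart from brain region, preparation and gene table here. The 10 microglia markers had a median difference of -1.31 in the same comparison, with 3 of 10 called lower, and their part in the result was not tested.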

How the results depend on the processing

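P2ry12, P2ry13 and Gpr34 were called lower after LPS in microglia, in each genotype and averaged, under all alternatives run and with any of the 12 libraries left out, and the averaged Entpd1 call held under them too. The averaged P2rx4 value was called with DESeq2 (0.55, adjusted p 0.0494) and without a filter (0.57, edgeR adjusted p 0.0298). Entpd1 in controls was called with DESeq2 (-1.45, adjusted p 0.0292) and without a filter (-1.41, edgeR adjusted p 2.63e-06), and in knockouts it lost the call with sex from the labels (-1.62, edgeR adjusted p 0.117) or from transcripts (-1.58, edgeR adjusted p 0.105) as a covariate. The P2rx7 difference between cell types was called lower in microglia with a minimum count of 50 (edgeR adjusted p 0.0476), with either sex covariate (0.0409 and 0.0420) and without any of 6 libraries. Of the 8 genes, the number called for LPS in astrocytes was 2 with DESeq2, 2 without a filter and 0 to 1 with a library left out, against 1, the added gene being P2ry6. For the LPS response in microglia minus astrocytes it was 5 without a filter, 1 with each sex covariate and 0 to 3 with a library left out, against 2. The cause was not tested. The number of libraries per group and, for Adora3 and for P2ry6 and Gpr34 in astrocytes, low counts limit the precision.

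Same-numbered knockout and control libraries deviated together (correlation over 0.1) in 5 of 12 pairs, which were 3 of 3 in LPS astrocytes (0.157 to 0.354), 0 of 3 in saline astrocytes and 1 of 3 in each injection of microglia, and 6 of 12 correlated best with their own number. With the replicate block, 4 of the 8 genes were called for LPS in control microglia (Entpd1 added, -1.39, edgeR adjusted p 0.0482) and 5 between cell types, where Gpr34 lost its call (1.77, edgeR adjusted p 0.0515), and the block changed no other call of a member.

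Over all genes, calls for LPS in microglia numbered 285 with DESeq2 and 463 without a filter in controls, against 128. In knockouts they numbered 515 with DESeq2, 637 without a filter, 158 and 163 with sex from labels and transcripts, against 254. Averaged, they numbered 927, 1191, 371 and 434 in the same order, against 600. In astrocytes they numbered 1917 with DESeq2 and 2033 without a filter, against 1255. For the difference between cell types in the LPS response they numbered 1260 and 1518, against 640. With a library left out these numbers ranged from 112 to 355 in knockout microglia, 420 to 1178 averaged, 727 to 1714 in astrocytes and 447 to 1036 for the difference between cell types. For the knockout effect in microglia DESeq2 called 1, 1 and 4 genes in saline, after LPS and averaged, and the fit without a filter called 22, 19 and 40. For the difference of LPS responses between genotypes these counts were 1 and 7 in microglia, and in astrocytes the fit without a filter called 13 (0 with DESeq2) and 9 for the averaged knockout effect.

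Values near 0 that were never called changed sign, on the log2 scale. For P2ry6 the LPS effect in knockout microglia, -0.00 as reported, was 0.0053 with RLE factors, 0.0020 with DESeq2, 0.019 without a filter, 0.012 with a minimum count of 50, 0.22 and 0.18 with sex from labels and transcripts, 0.16 with the replicate block and 0.015 with the groups compared alone. In controls it was 0.23 and 0.015 with the sex covariates, and averaged it was 0.23 and 0.10 with them and 0.046 with the replicate block. The difference of its responses between genotypes was -0.0058 with sex from the labels. The averaged LPS effect of Adora3 was 0.055 with sex from the labels. The difference of LPS responses between genotypes was 0.14, 0.12 and 0.091 for P2ry12 with sex from transcripts, the replicate block and the replicate block within injection, and 0.12 and 0.054 for Gpr34 with sex from transcripts and the replicate block. The P2rx4 difference between cell types was 0.021 with RLE factors and 0.022 with DESeq2.

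With a library left out, the LPS effect in microglia ranged for P2ry6 from -0.52 to 0.25 in controls, -0.23 to 0.61 in knockouts and -0.25 to 0.25 averaged. For P2rx7 it ranged from -0.33 to 0.14 in controls and -0.43 to 0.12 in knockouts, for Adora3 averaged from -0.27 to 0.12, and for P2ry13 in astrocytes from -0.84 to 0.034. The knockout effect in saline microglia ranged from -0.23 to 0.54 for Adora3, -0.76 to 0.40 for Entpd1, -0.26 to 0.26 for P2rx4, -0.48 to 0.18 for P2rx7 and -0.96 to 0.018 for P2ry6. After LPS it ranged from -0.48 to 0.11 for P2ry6, and averaged from -0.37 to 0.024 for Adora3 and -0.18 to 0.082 for P2rx4. The difference of LPS responses between genotypes ranged from -0.24 to 0.39 for P2ry12, -0.30 to 0.33 for Gpr34, -0.81 to 0.34 for Entpd1, -0.35 to 0.17 for P2rx4, -0.40 to 0.26 for P2rx7 and -0.25 to 0.72 for P2ry6.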
